A study of Homo sapiens with 8 samples.

Results

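MicroRNAs (miRNAs) were compared between HCT116 cells rescued with R821H DICER and HCT116 cells rescued with R1855L DICER. The libraries were chosen by the substitution named in their titles, 2 per substitution, which makes 4 of the 8 libraries of the series. HCT116 is a human colorectal carcinoma cell line, and the labels name no treatment. The other 4 libraries were 2 from cells rescued with wild-type DICER (WT) and 2 from cells rescued with R1003Q DICER. They entered the choice of tested names and hairpins, the scaling and the shared estimate of the spread. Their levels are given for reference. All 4 groups carry a DICER rescue. The labels do not state how the cells' own DICER was removed, what drives the rescue, or whether a line is 1 clone. Nor do they say that the replicates came from separate cultures. The p-values therefore take in only library-to-library spread, possibly all of it technical. The assay does not measure DICER itself, so the genotype labels could not be checked from these data.

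DICER, an RNase III, cuts the loop off a precursor hairpin and so releases a duplex of a 5p strand and a 3p strand. One strand is then kept as the guide in an Argonaute protein, and its seed, bases 2 to 8, pairs with target mRNAs. The exact cut sets the ends of both strands, and the ends bear on which strand is kept. The residue replaced in R1855L lies in the C-terminal double-stranded RNA-binding domain of DICER, and the residue replaced in R821H in its platform region. The comparison asks whether the 2 substitutions leave different miRNA populations.

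The libraries held 2241881 and 462805 reads in R1855L and 3340304 and 841857 in R821H (replicates 1 and 2), so replicate 1 was the deeper library in both groups. Reads fell on 1677 mature miRNA names, and the 625 names tested took up 99.85% of reads or more in each library. Levels are in CPM, reads scaled to the library's total and by TMM, edgeR's correction for composition, and so are relative to the other miRNAs of a library. A count of 0 allows 3 reads, or 5.52 CPM in the shallowest library. Where an added model term for deep and shallow libraries, called the depth term, changes a call of a named miRNA, this is given beside it. Markers of colon epithelium were present, with miR-200b-3p at 723 to 4480 reads per library and miR-200c-3p at 13 to 124. miR-215-5p was at 0 reads in both replicate 2 libraries. Markers listed for other cell types had reads too, such as miR-145-5p at 412 to 2062 and miR-9-5p at 246 to 2805 per library. Of 8 colon markers 7 were tested, and their summed level was 3429 and 3059.9 CPM in R1855L and 3745 and 3059 CPM in R821H. For blood cells 5 of 8 markers were tested, with sums of 827 and 920.0 against 754 and 624 CPM.

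R821H and R1855L differed at 24 of 625 miRNAs (edgeR, Benjamini-Hochberg adjusted p under 0.05). Higher levels in R821H made up 22 of them, a background of 3.52% of the tested miRNAs, and lower levels 2, or 0.32%. Most of the higher ones, 18 of 22, were 3p strands. They included miR-484, miR-331-3p, miR-615-3p, miR-1307-3p and the abundant miR-222-3p, with the largest difference at miR-484. Both lower ones, miR-139-3p and miR-185-3p, were 3p strands too. A total of 93 miRNAs had an unadjusted p under 0.05, and the median log2 difference over all 625 was -0.06.

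The sequences below are those the results turn on, as RefSeq gives them for GRCh38.p14, 5′ to 3′. The table held a sequence for 542 of the 625 tested names (86.7%) and for 22 of the 24 called ones, with miR-375 and miR-151a-3p as the exceptions. Capitals mark the seed, bases 2 to 8. First come called miRNAs, higher in R821H, whose seed no other tested miRNA with a sequence shares.
miR-484: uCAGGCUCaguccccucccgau
miR-331-3p: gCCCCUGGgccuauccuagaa
miR-615-3p: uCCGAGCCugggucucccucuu
miR-3200-3p: cACCUUGCgcuacucaggucug
miR-1307-3p: aCUCGGCGuggcgucggucgug
miR-361-3p: uCCCCCAGgugugauucugauuu
miR-140-3p: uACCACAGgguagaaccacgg
miR-203a-3p: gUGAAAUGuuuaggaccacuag
miR-203b-3p: uUGAACUGuuaagaaccacugga
miR-1226-3p: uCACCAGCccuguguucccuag
miR-1229-3p: cUCUCACCacugcccucccacag

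Next are the called miRNAs that share their seed with a tested miRNA that was not called, each beside its relatives. They show how near in sequence the called and uncalled members are.
miR-222-3p (called): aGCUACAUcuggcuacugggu
miR-221-3p: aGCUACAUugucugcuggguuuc
miR-27b-3p (called): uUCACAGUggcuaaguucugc
miR-27a-3p: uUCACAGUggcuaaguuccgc
miR-23b-3p (called): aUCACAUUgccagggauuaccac
miR-23a-3p: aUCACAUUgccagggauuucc
miR-25-3p (called): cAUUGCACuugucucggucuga
miR-92a-3p: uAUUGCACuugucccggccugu
miR-92b-3p: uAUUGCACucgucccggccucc
miR-32-5p: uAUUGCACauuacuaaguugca
miR-141-3p (called): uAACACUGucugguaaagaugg
miR-200a-3p: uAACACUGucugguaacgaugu

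The 2 miRNAs called lower in R821H have the sequences below.
miR-139-3p: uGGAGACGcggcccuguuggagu
miR-185-3p: aGGGGCUGgcuuuccucugguc

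miR-484, a miRNA whose hairpin is made as a capped transcript without Drosha, was at 20.7 and 47.8 CPM in the R1855L libraries and at 1049 and 1296 CPM in the R821H libraries. The groups lay far apart, and the fitted level was 36.5-fold higher in R821H (log2 difference 5.19, SE 0.43, edgeR adjusted p = 0.00226). Between the deeper libraries the log2 difference was 5.65 and between the shallower ones 4.73. MIR484 lies on chromosome 16 at 15643294 to 15643372, on the plus strand, within an exon of NDE1. Its hairpin is shown with the annotated mature strand in capitals, the only strand annotated for it.
MIR484: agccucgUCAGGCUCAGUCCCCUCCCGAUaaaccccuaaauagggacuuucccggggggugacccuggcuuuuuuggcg

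The other capped hairpins are the miR-320 family, which also skips Drosha and gives its product from the 3′ arm. miR-320a was at 2287 and 1345 CPM in R1855L and at 5784 and 5512 CPM in R821H, groups that did not overlap, with a log2 difference of 1.64 (SE 0.39) that missed the threshold (edgeR adjusted p = 0.0685). miR-320b gave 2.11 (SE 0.74, adjusted p = 0.229), miR-320c 2.03 and miR-320d 2.36, and the libraries of the last 2 overlapped between groups. Thus 1 of the 5 tested capped hairpins was called higher, beside 3.52% of all tested miRNAs. All 5 estimates lay above 0, with a median of 2.11 against -0.06 for all tested miRNAs. The near-identical miR-320 names may share reads. With the depth term, all 5 were called, beside 12.3% of all tested miRNAs called higher and 5.92% called lower under that model.

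Mirtrons, whose hairpins are excised by splicing and reach DICER without Drosha, had 2 of 11 tested members called higher and none lower. Among all tested miRNAs 3.52% were called higher and 0.32% lower. The median of the 11 was 1.06. miR-1226-3p, from an intron of DHX30, rested on 4 and 2 reads in R1855L against 44 and 29 in R821H, and the pooled, depth-scaled ratio was 8.31 (exact 95% interval 3.64 to 23.4, counting error only). miR-1229-3p, from an intron of MGAT4B, had 3 and 0 reads in the R1855L libraries and 42 and 19 in those of R821H, a ratio of 13.9 (4.54 to 69.2). Both were called at edgeR adjusted p = 0.0404 and 0.0170. Both end at the last bases of their hairpin, as the hairpin sequences show, with the annotated strands in capitals.
MIR1226: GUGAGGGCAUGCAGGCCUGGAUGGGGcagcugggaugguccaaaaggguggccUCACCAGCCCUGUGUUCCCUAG
MIR1229: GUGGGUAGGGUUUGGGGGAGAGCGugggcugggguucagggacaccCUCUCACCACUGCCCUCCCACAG

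Further mirtron products did not pass. miR-877-5p was at 103 and 95.7 CPM in R1855L and 187 and 211 CPM in R821H (log2 1.00, SE 0.25, edgeR adjusted p = 0.0783), and miR-1224-5p gave 2.37 (SE 0.56, adjusted p = 0.0672). miR-1225-5p had the opposite sign, -1.42 (SE 0.92), with overlapping libraries. With the depth term, 5 of the 11 were called higher and none lower, among them miR-877-5p and miR-1224-5p (edgeR adjusted p = 0.00189 and 0.000498). Over all tested miRNAs that model called 12.3% higher and 5.92% lower.

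miR-331-3p had 64.9 and 35.0 CPM in R1855L and 769 and 677 CPM in R821H. It was 14.0-fold higher in R821H (log2 3.81, SE 0.35, edgeR adjusted p = 0.00228), with 3.56 between the deeper and 4.24 between the shallower libraries. The other strand of the same hairpin, miR-331-5p, was at 300.5 and 259 CPM against 249.7 and 270.4 CPM, groups that overlapped (log2 -0.11, SE 0.22). MIR331 lies between genes on chromosome 12 at 95308420 to 95308513.

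miR-615-3p, from an intron of HOXC5, was at 22.6 and 53.4 CPM in R1855L and 229.5 and 391 CPM in R821H (log2 3.11, SE 0.50, edgeR adjusted p = 0.0132). Its 5p strand had 7 and 0 reads in R1855L and 24 and 21 in R821H, and missed the threshold (log2 2.58, SE 0.90, adjusted p = 0.219, and 0.0183 with the depth term). miR-3200-3p, from an intron of OSBP2, was at 20.7 and 22.1 CPM against 122 and 164 CPM (log2 2.74, SE 0.35). Its 5p strand was at 4 to 64 reads and differed by -0.05 (SE 0.78). Both 3p strands were thus separated between the groups in every library.

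miR-1307-3p, whose hairpin overlaps an exon of the gene GENCODE 29 names ATP5MD, was at 312 and 466 CPM in R1855L and 1928 and 2544 CPM in R821H (log2 2.53, SE 0.30, edgeR adjusted p = 0.00675). For this hairpin both strands were higher in both R821H libraries. miR-1307-5p was at 522 and 1314 CPM against 2309.7 and 3483 CPM, a log2 difference of 1.66 (SE 0.54) that missed the threshold (adjusted p = 0.189). It was called with the depth term, at 1.78 (SE 0.19, edgeR adjusted p = 4.97e-08).

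**Figure D1:**
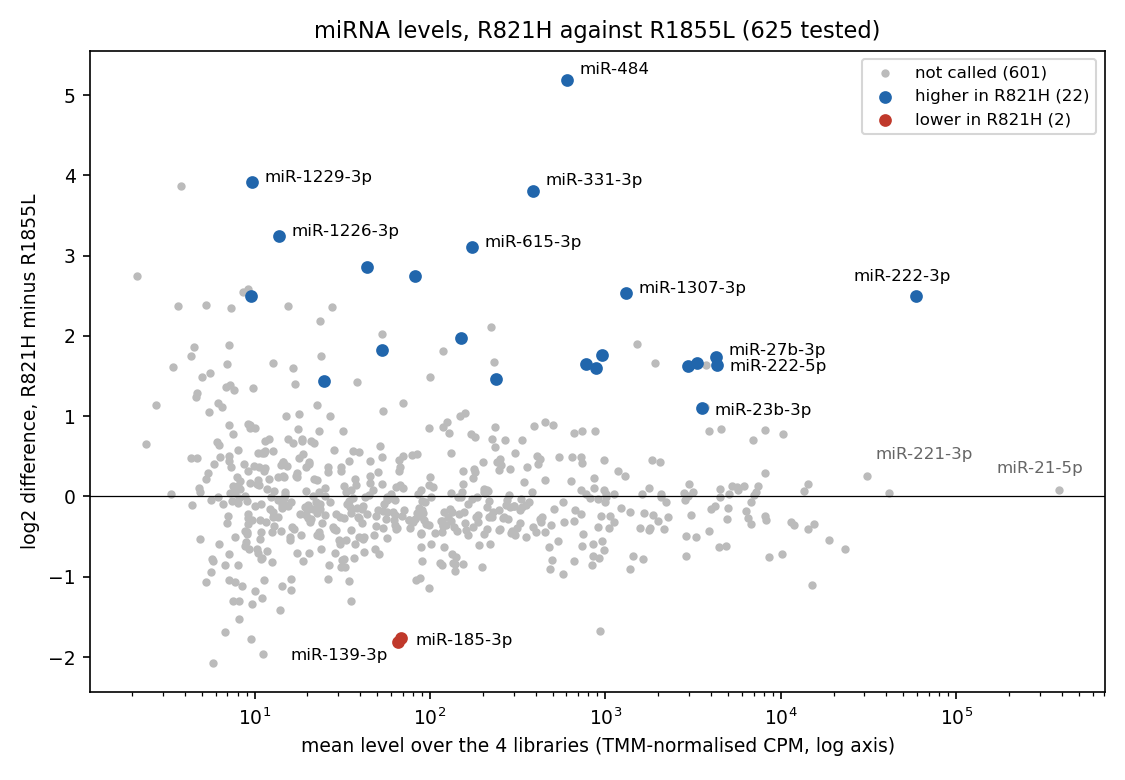
The log2 difference of each tested miRNA, R821H minus R1855L, is plotted against its mean level over the 4 libraries in CPM on a log axis, with called miRNAs coloured. The 22 miRNAs higher in R821H run from miR-1229-3p and miR-643 at the low end to miR-222-3p among the most abundant, and the 2 lower ones, miR-139-3p and miR-185-3p, lie side by side.

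miR-222-3p, which targets the mRNA of the cell-cycle inhibitor p27, was the most abundant of the called miRNAs. It stood at 17068 and 18483 CPM in R1855L and 87693 and 112980.0 CPM in R821H, 5.64-fold higher (log2 2.50, SE 0.26, edgeR adjusted p = 0.00416). Its 5p strand was higher too, at 1593 and 2628 CPM against 7137 and 6024 CPM (log2 1.64, SE 0.30, adjusted p = 0.0274). Both strands of this hairpin were separated between the groups.

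miR-221-3p comes from the neighbouring hairpin, 749 bases away, and has the same seed. It was at 26576 and 30269.9 CPM in R1855L and 28966 and 39000.1 CPM in R821H, groups that overlapped (log2 0.26, SE 0.26, edgeR adjusted p = 0.770). miR-221-5p gave -0.75 (SE 0.59). Of the 4 tested strands of this cluster, those of miR-222 were called and those of miR-221 were not, beside 3.52% called higher over all tested miRNAs. In R1855L miR-222-3p was below miR-221-3p in both libraries, and in R821H it was above it in both. On the X chromosome, MIR222 spans 45747015 to 45747124 on the minus strand, in an intron of MIR222HG, and its hairpin is shown with both annotated strands in capitals.
MIR222: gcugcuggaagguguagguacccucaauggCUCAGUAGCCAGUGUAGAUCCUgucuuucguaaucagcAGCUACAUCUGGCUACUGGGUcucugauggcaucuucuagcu

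The same split between relatives appeared in the miR-23/27/24 clusters, 11 tested strands from paralogous hairpins. miR-27b-3p was at 1924 and 2017 CPM in R1855L and 6969 and 6188 CPM in R821H (log2 1.74, SE 0.23, edgeR adjusted p = 0.00784). miR-27a-3p, which differs from it near the 3′ end, overlapped between groups at 12909 and 21920.0 against 13983 and 13361 CPM (log2 -0.35, SE 0.31). Such near-identical names may share reads.

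miR-23b-3p was at 2299 and 2215 CPM in R1855L and 4802 and 4865 CPM in R821H (log2 1.10, SE 0.22, edgeR adjusted p = 0.0348), while miR-23a-3p gave -0.07 (SE 0.23). The miR-23b-3p groups did not overlap, and those of miR-23a-3p did. miR-24-3p, made from both clusters under 1 name, gave 0.15 (SE 0.27). MIR23B and MIR27B lie 141 bases apart in an intron of C9orf3 on chromosome 9. Calls fell on 2 of the 11 strands, both 3p strands from those hairpins and higher, beside 3.52% of all tested miRNAs.

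miR-25-3p, from an intron of MCM7, was at 1424 and 1468 CPM in R1855L and 4249 and 4664 CPM in R821H (log2 1.62, SE 0.23, edgeR adjusted p = 0.00808). Its seed relatives had differences of -0.32 (miR-92a-3p, SE 0.28), -0.66 (miR-92b-3p, SE 0.29) and -0.07 (miR-32-5p, SE 0.26). Its cluster neighbours miR-106b-5p and miR-93-5p gave -0.05 (SE 0.48) and 0.01 (SE 0.57). Their 3p strands gave 0.78 (SE 0.26) for miR-106b-3p and -0.79 (SE 0.34) for miR-93-3p. None of these relatives and neighbours was called without the depth term. With it, the seed relative miR-92b-3p was called lower (edgeR adjusted p = 0.0146). That term also called 2 of the 6 tested strands of the cluster higher and 2 lower, in place of 1 higher. Neighbours of miR-25 were among both. Over all tested miRNAs the term called 12.3% higher and 5.92% lower, in place of 3.52% and 0.32%.

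In the miR-200 family, which maintains epithelial identity, 1 of 7 tested members was called higher, beside 3.52% of all tested miRNAs. miR-141-3p was at 14.8 and 11.0 CPM in R1855L and 36.2 and 36.9 CPM in R821H (log2 1.44, SE 0.31, edgeR adjusted p = 0.0472). Its seed relative miR-200a-3p gave 0.03 (SE 0.23) and its cluster neighbour miR-200c-3p -0.13 (SE 0.52). miR-429 was at 287 and 337 against 611 and 573 CPM and just missed the threshold (log2 0.93, SE 0.21, adjusted p = 0.0533, and 0.000498 with the depth term).

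miR-203a and miR-203b come from hairpins that overlap on opposite strands of chromosome 14, and whether reads were counted by strand is not given in the sources used here. miR-203a-3p, a miRNA of epithelial differentiation, was at 359 and 394 CPM in R1855L and 1098 and 1257 CPM in R821H (log2 1.64, SE 0.22, edgeR adjusted p = 0.00808). miR-203b-3p was at 25.6 and 20.2 against 83.2 and 83.4 CPM (log2 1.83, SE 0.27, adjusted p = 0.0105). The 5p strands of both overlapped between groups, with -0.25 (SE 0.58) and -0.55 (SE 0.54).

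Further 3p strands were called with like sizes. miR-361-3p, from an intron of CHM, was at 52.1 and 71.8 CPM against 224 and 256 CPM (log2 1.97, SE 0.31, edgeR adjusted p = 0.0121). miR-140-3p, from an intron of WWP2 and known for its role in cartilage, was at 427 and 445 against 1345 and 1608 CPM (log2 1.76, SE 0.25), and miR-151a-3p at 1502 and 1685 against 4763 and 5309.8 CPM (log2 1.66, SE 0.25). Their 5p strands did not pass, with -0.39 (SE 0.27), 0.72 (SE 0.22) and 0.70 (SE 0.38), and with the depth term miR-140-5p and miR-151a-5p were called higher (edgeR adjusted p = 0.0132 and 0.00203).

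The remaining called miRNAs fell outside the naming rule and are named after their values were seen. miR-375, an endocrine and epithelial miRNA, was at 11.3 and 9.20 CPM against 67.2 and 88.1 CPM (log2 2.86, SE 0.35). miR-128-3p gave 1.59 (SE 0.24), miR-455-3p 1.47 (SE 0.26) and miR-643 2.49 (SE 0.49), the last on 7 and 1 reads in R1855L. None of these overlapped between groups.

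**Figure D2:**
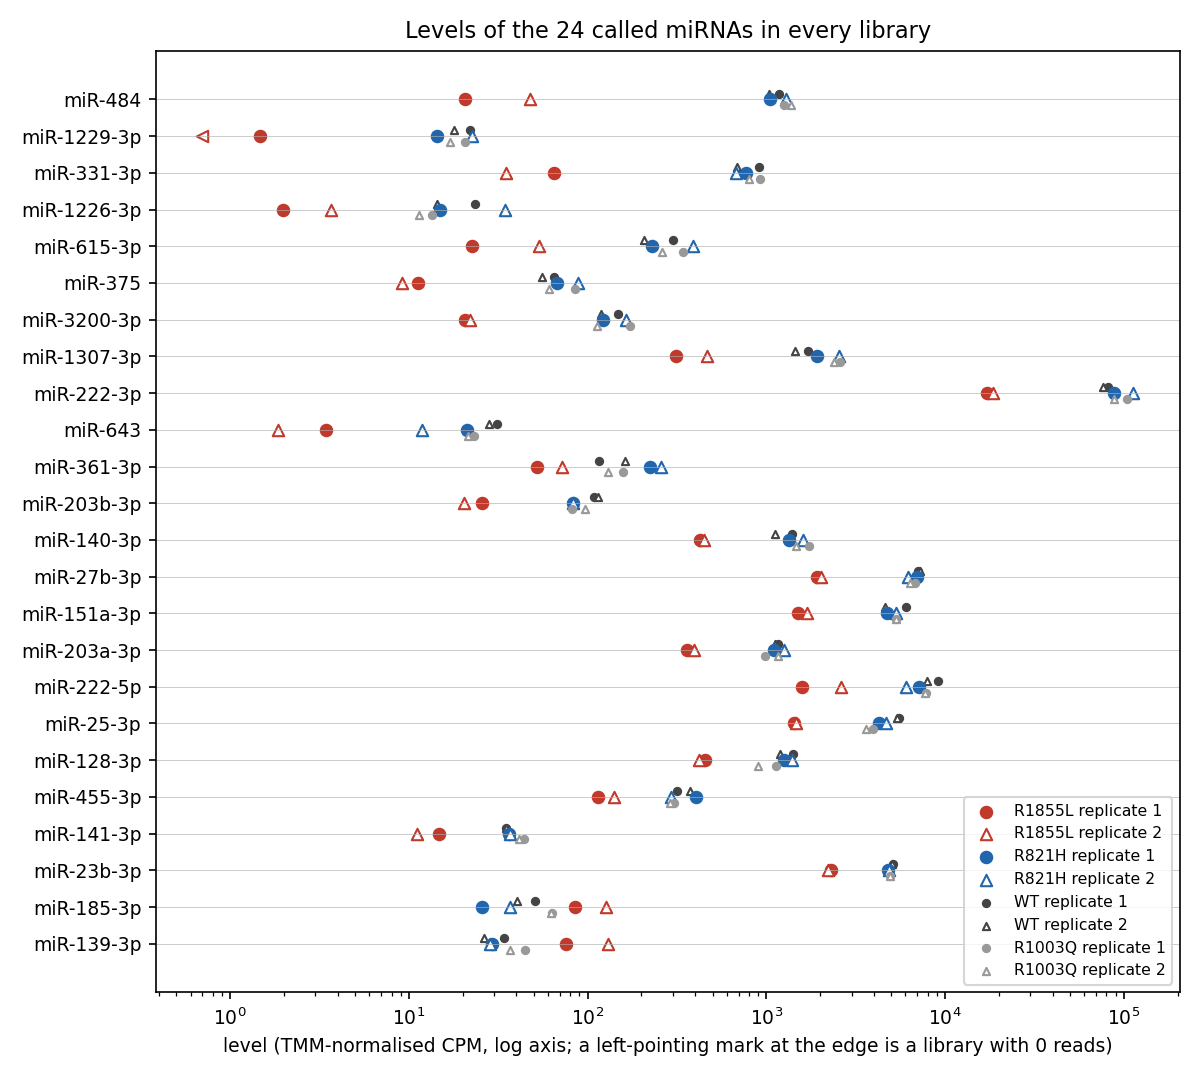
Levels of the 24 called miRNAs are drawn in every library on a log axis, with R1855L in red, R821H in blue, WT in dark grey and R1003Q in light grey, filled circles for replicate 1 and open triangles for replicate 2. The red points lie left of all others for the 22 miRNAs higher in R821H and right of all others for the 2 lower ones.

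The groups compared were also set beside the reference libraries. In 21 of the 22 miRNAs called higher, both R1855L libraries lay outside the range of all 6 other libraries while the R821H libraries did not. In the last one, miR-361-3p, each group stood apart, with WT at 115 and 162 CPM between R1855L and R821H. The mean of R821H was nearer to that of WT than the mean of R1855L was in all 22, and in 70.6% of the 625 tested. Over all 625 R1855L stood apart in this way in 133 (21.3%) and R821H in 23. For miR-484 WT was at 1175 and 1039 CPM, for miR-331-3p at 906 and 684 CPM, and for miR-222-3p at 81883 and 76740.0 CPM. These are positions of libraries, with no test attached. The called miRNAs were chosen for a difference between R821H and R1855L, so the shares over all 625 are not a like background for them.

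Lower levels in R821H were called for 2 miRNAs. miR-139-3p, from an intron of PDE2A, was at 75.7 and 131 CPM in R1855L and 29.3 and 28.6 CPM in R821H (log2 -1.81, SE 0.36, edgeR adjusted p = 0.0348). miR-185-3p, from an intron of TANGO2, was at 84.6 and 127 CPM against 25.6 and 36.9 CPM (log2 -1.77, SE 0.34, adjusted p = 0.0342). Both are the less abundant strand of their hairpin in all 4 libraries. WT was at 34.2 and 26.3 CPM for miR-139-3p, close to R821H, and at 50.9 and 40.1 CPM for miR-185-3p, between the groups.

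Calls were also counted by strand. Of 243 tested 3p names, 18 (7.41%) were called higher and 2 lower, and of 268 tested 5p names 1 (0.373%), miR-222-5p, was called higher and none lower. With the depth term, 40 of the 3p names were called higher and 15 lower. Of the 5p names that model called 21 higher and 14 lower, so its calls were not nearly confined to 3p names. Over all tested miRNAs it called 12.3% higher and 5.92% lower. Names without a strand suffix gave 3 of 114 in the model without the depth term. The median log2 difference was 0.06 for 3p and -0.14 for 5p names. Both R821H libraries were above both R1855L libraries for 129 of the 625 tested miRNAs (20.6%) and below both for 108 (17.3%). By strand they were above for 65 and below for 46 of the 3p names, and above for 41 and below for 45 of the 5p names. A difference between 3p and 5p names as classes was not tested.

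The base composition of the names called higher was set beside that of all tested names. U was the first base of 9 of the 20 higher names with a sequence, against 37.5% of all tested names, and the G and C share was 53.2% against 51.9%. The median length was 22 bases in both. These shares are descriptions without a test.

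The ratio of 5p to 3p reads within a hairpin does not depend on library scaling. It was tested on log2(5p reads + 0.5) minus log2(3p reads + 0.5) in 174 hairpins with at least 80 reads on each strand over the 8 libraries. In R821H the ratio moved toward the 3p strand in 11 hairpins (6.32%) and toward the 5p strand in 3 (1.72%) relative to R1855L (limma, adjusted). A total of 32 had an unadjusted p under 0.05. These reads are those of the level test, so the ratios are not independent evidence of the level changes.

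miR-331 changed its dominant strand. The 3p strand made up 17.8% (exact 95% interval 15.1 to 20.7) and 11.9% (7.30 to 17.9) of its reads in the R1855L libraries, and 75.5% (73.9 to 77.0) and 71.4% (68.2 to 74.6) in the R821H libraries. The log2 ratio of 5p to 3p differed by -4.00 (SE 0.38, limma adjusted p = 0.000486). The WT libraries had log2 ratios of -1.94 and -1.40, near the -1.62 and -1.32 of R821H, and R1855L had 2.21 and 2.86.

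For miR-25 the 3p strand dominated in every library, with 86.0% and 84.1% of reads in R1855L and 97.3% and 96.6% in R821H (log2 ratio change -2.51, SE 0.36, limma adjusted p = 0.00598). miR-27b had 90.2% and 91.1% against 97.1% and 96.7% (change -1.69, SE 0.35). miR-23b had 95.1% and 94.1% against 98.0% and 97.8% (change -1.41, SE 0.35). In these hairpins the minor 5p strand held a larger share in R1855L. None of the 3 minor strands was called in level, but miR-25-5p was called lower in R821H with the depth term (log2 -0.89, edgeR adjusted p = 0.00421). MIR25 lies on chromosome 7 at 100093560 to 100093643 on the minus strand and MIR27B on chromosome 9 at 95085445 to 95085541 on the plus strand. Both hairpins are shown with both annotated strands in capitals.
MIR25: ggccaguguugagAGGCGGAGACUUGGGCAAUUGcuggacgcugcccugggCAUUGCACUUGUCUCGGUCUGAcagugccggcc
MIR27B: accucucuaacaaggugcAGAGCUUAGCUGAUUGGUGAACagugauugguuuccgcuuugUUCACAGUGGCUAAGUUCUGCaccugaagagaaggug

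miR-361 kept the 5p strand as its major product in all libraries, with the 3p strand at 3.64% and 6.62% in R1855L and 18.3% and 23.7% in R821H (change -2.34, SE 0.39, limma adjusted p = 0.00916). The WT ratios, 2.71 and 2.66, lay between those of R821H, 2.15 and 1.68, and those of R1855L, 4.72 and 3.80. miR-455 went from 37.4% and 46.9% of 3p reads to 68.8% and 64.7% (change -1.47, SE 0.36). miR-203b went from 36.4% and 42.3% to 71.3% and 84.3% (change -2.46, SE 0.58). In the last 2 hairpins the 5p strand had more reads in both R1855L libraries, and the 3p strand in both R821H libraries. In R1855L replicate 2, miR-455 had 86 reads of its 5p strand and 76 of its 3p strand, and miR-203b 15 and 11. The exact intervals of the 3p share there were 39.0% to 54.9% and 23.4% to 63.1%. Both intervals take in equal shares, so the major strand in that library was not settled.

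miR-324 and miR-33b were called in ratio while neither of their strands was called in level. The 3p share of miR-324 was 27.7% and 44.2% in R1855L and 60.4% and 65.7% in R821H (change -1.63, SE 0.41, limma adjusted p = 0.0451), and the 5p and 3p levels differed by -0.80 (SE 0.21) and 0.79 (SE 0.37). Both were called with the depth term, miR-324-5p lower and miR-324-3p higher (edgeR adjusted p = 0.00185 and 0.00211). For miR-33b, which lies in an intron of the lipid regulator SREBF1, the 3p share was 21.0% and 15.2% against 41.6% and 36.4% (change -1.55, SE 0.39). Its 3p level differed by 0.01 (SE 0.39) and its 5p level, miR-33b-5p, by -1.68 (SE 0.61), or -1.39 and called with the depth term (edgeR adjusted p = 0.0235). That 5p level was 2202 CPM in R1855L replicate 2 and 625 in replicate 1, against 408 and 473 CPM in R821H.

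The mirtron-derived miR-1226 changed by -2.63 (SE 0.61) and miR-6765 by -3.88 (SE 0.82). miR-6765 rested on 1 and 0 reads of its 3p strand in R1855L against 12 and 9 in R821H, with 10 to 18 reads of its 5p strand per library. Its call was lost with a pseudocount of 5, and so were the ratio calls of miR-1226, miR-324, miR-33b, miR-455, miR-23b and miR-345.

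Toward the 5p strand, miR-185 changed by 2.44 (SE 0.39, limma adjusted p = 0.00916), miR-139 by 1.96 (SE 0.37, adjusted p = 0.0178) and miR-345 by 1.61 (SE 0.41, adjusted p = 0.0451). miR-345 rested on 26 and 9 reads of its 3p strand in R1855L and 27 and 7 in R821H. The 3p share of miR-185 was 29.4% and 38.5% in R1855L and 7.28% and 9.94% in R821H. That of miR-139 was 17.3% and 21.6% against 6.89% and 4.80%. For both, the 5p level differed by less than the threshold required, 0.70 (SE 0.20) and 0.21 (SE 0.28), and miR-185-5p was called higher with the depth term (edgeR adjusted p = 0.0114). The miR-139 hairpin is shown with both annotated strands in capitals.
MIR139: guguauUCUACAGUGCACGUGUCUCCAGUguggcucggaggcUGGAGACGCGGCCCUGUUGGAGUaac
MIR185: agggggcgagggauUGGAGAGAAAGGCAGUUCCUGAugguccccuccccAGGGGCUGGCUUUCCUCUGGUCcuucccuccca

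**Figure D3:**
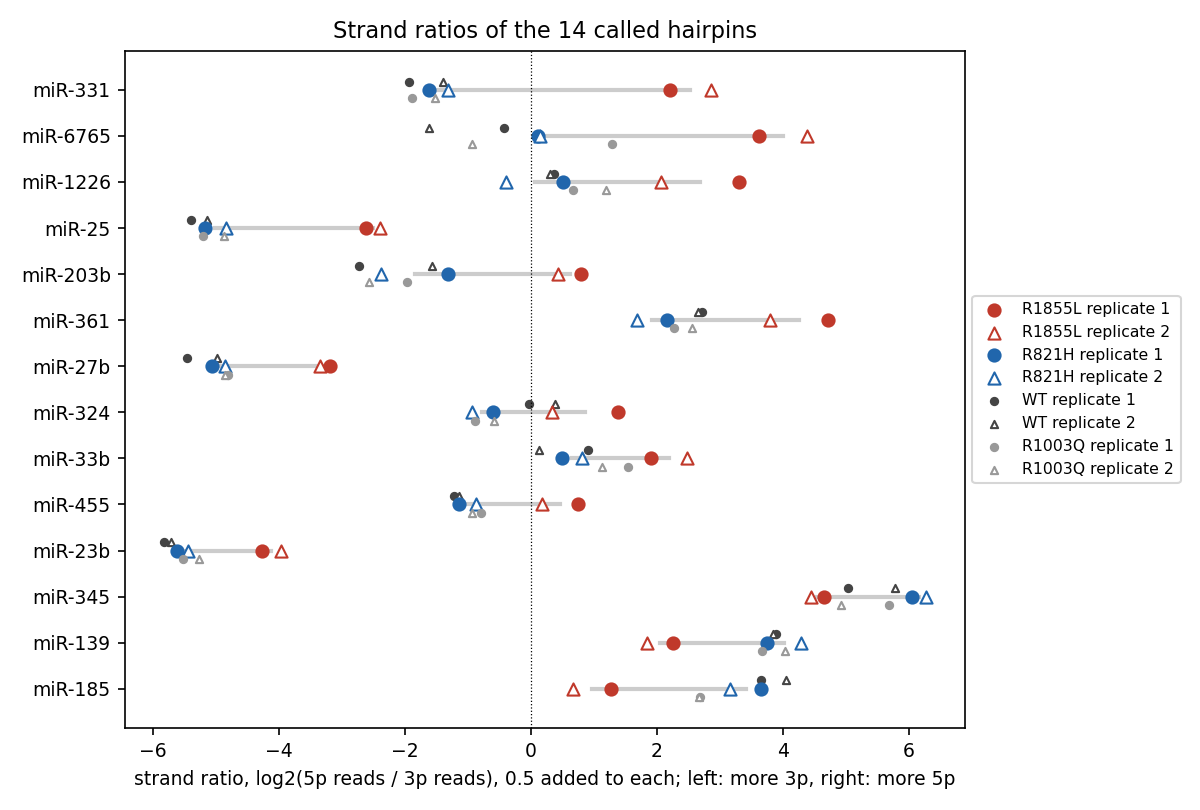
Log2 ratios of 5p to 3p reads are drawn for the 14 called hairpins in every library, with a grey bar from the R1855L mean to the R821H mean. Filled circles are replicate 1 and open triangles replicate 2, with WT and R1003Q in grey. For miR-331, miR-455 and miR-203b the red R1855L points lie right of 0 and the blue R821H points left of it. For miR-455 and miR-203b in R1855L replicate 2, the exact interval of the 3p share takes in equal shares.

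The spacing of the strands was compared as a description over the 142 hairpins with both sequences in the table. The number of bases between the annotated strands had a median of 17 in the hairpins that moved toward 3p, 13 in the 3 that moved toward 5p, and 16 in all 142. The hairpins that moved toward 5p, miR-185, miR-139 and miR-345, had 13, 13 and 14 bases there, within the range of 12 to 41 of the other direction.

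In 171 hairpins both strands were tested for level. Among the 11 hairpins with a ratio moved toward 3p, the 3p strand was called higher in 8 (miR-331, miR-1226, miR-25, miR-203b, miR-361, miR-27b, miR-455 and miR-23b) and the 5p strand was called in none, while the depth term added calls of lower levels for the 5p strands of miR-25, miR-324 and miR-33b. Of the 3 moved toward 5p, the 3p strand was called lower in 2. Summed over both strands, miR-27b was at 2134 and 2214 CPM in R1855L and 7177 and 6399.6 CPM in R821H, and miR-25 at 1655 and 1746 against 4366 and 4826 CPM. For miR-139 the sum was 439 and 604 against 426 and 595.5 CPM, and for miR-361 1432 and 1084 against 1220.0 and 1080.3 CPM. The sums of the first 2 hairpins were separated between groups, and those of the last 2 overlapped.

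**Figure D4:**
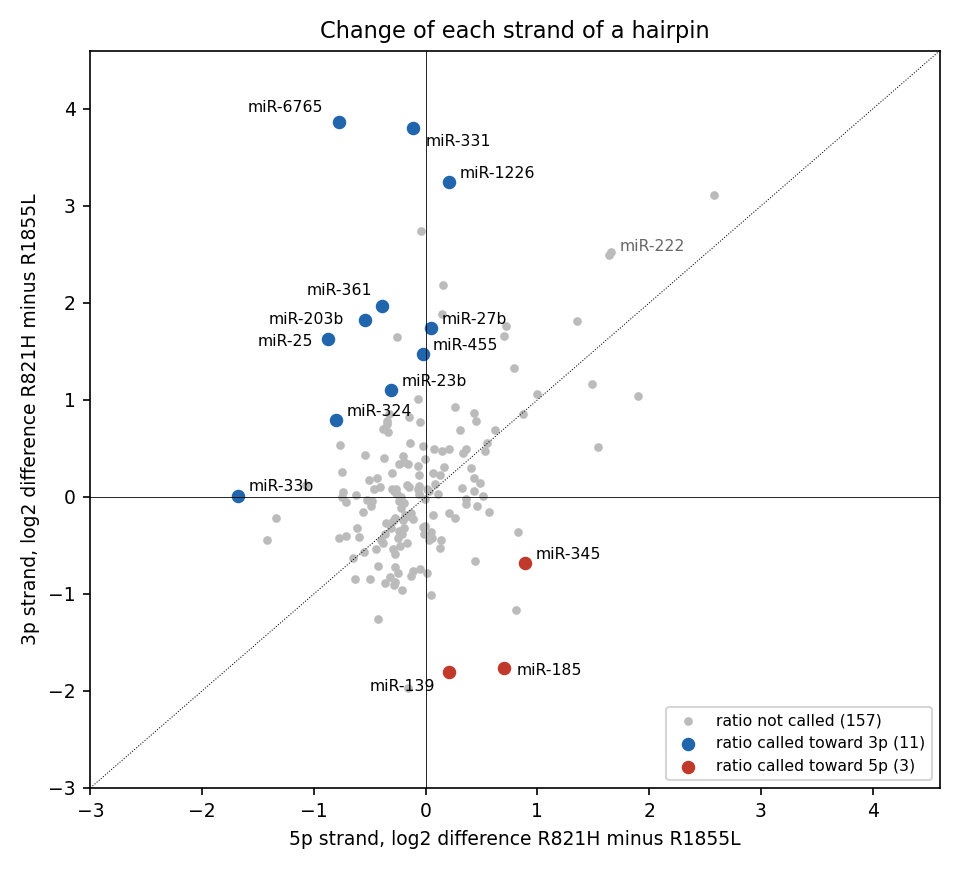
The log2 level difference of the 3p strand is plotted against that of the 5p strand for 171 hairpins, with those called in ratio coloured. Most hairpins moved toward 3p lie well above 0 on the 3p axis. Most of them lie left of 0 on the 5p axis, down to -1.68 for miR-33b, which is at 0.01 on the 3p axis. miR-222, called on both strands, lies right of 0 on the 5p axis.

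Of the 10 most abundant miRNAs over the 4 libraries, 1 was called, miR-222-3p. miR-21-5p, an oncogenic miRNA, took from 28.8% to 45.2% of the reads over the 8 libraries, and was at 497861 and 248462 CPM in R1855L and 464280.0 and 325672 CPM in R821H (log2 0.08, SE 0.41). miR-31-5p gave 0.04 (SE 0.26), miR-10a-5p -0.55 (SE 0.25), miR-4521 -0.41 (SE 0.56), miR-100-5p -0.65 (SE 0.33) and miR-1260b -1.10 (SE 0.56). For miR-10a-5p and miR-1260b both R821H libraries were below both R1855L libraries, and the differences missed the threshold. miR-10a-5p and miR-100-5p were called lower with the depth term (edgeR adjusted p = 0.0209 and 0.0110). The signs of miR-21-5p and miR-31-5p turned with scaling by library totals alone, to -0.02 and -0.08.

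Of 29 lists of families, clusters and classes, 9 held a called member, and 22 with the depth term. Of all 625 tested miRNAs, 12.3% were called higher and 5.92% lower with that term, and 3.52% and 0.32% without it. The 9 let-7 5p strands, tumour-suppressor miRNAs of differentiated cells, had no call and a median of 0.06, and their 10 tested 3p strands no call and a median of -0.47. Under the depth term 2 of the 5p strands were called higher and 2 of the 3p strands lower. let-7a-5p was at 9157 and 2572 CPM in R1855L and 8514 and 4357 CPM in R821H and was higher in replicate 1 in both groups. let-7i-3p was at 457 and 806 against 300.8 and 373 CPM (log2 -0.90, SE 0.33, edgeR adjusted p = 0.237, and 0.00177 with the depth term).

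In the miR-17/92 lists 16 strands were tested and none was called (median -0.15), and the same held for 12 strands of the miR-15/16 family (-0.21), 11 of the miR-30 family (0.02), 8 of the miR-181 family (0.04) and 10 of the miR-130 family with its seed relatives (-0.12). With the depth term, 1 strand of each of these lists but miR-15/16 was called, lower in the miR-17/92 and miR-30 lists and higher in the other 2. These counts stand beside 12.3% called higher and 5.92% called lower over all tested miRNAs. The miR-29 family had no call among 7, with miR-29a-3p at 8157 and 6924 against 14327 and 11543 CPM (log2 0.78, SE 0.30, edgeR adjusted p = 0.275, and 0.00126 with the depth term). Among 6 p53-linked miRNAs, miR-34a-5p was at 3594 and 2053 against 5032 and 4958 CPM (log2 0.82, SE 0.33, adjusted p = 0.285, and 0.00105 with the depth term).

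The 10 tested miRNA names that overlap other non-coding RNAs, such as miR-1260b and miR-4454, had no call. All 10 estimates lay below 0 with a median of -0.61, while 281 of all 625 estimates lay above 0. Their summed level was 13100.5 and 35166 CPM in R1855L and 11833 and 12017 CPM in R821H, so R1855L replicate 2 stood out. The depth term made 3 of them called lower, beside 5.92% of all tested miRNAs. The 12 snoRNA-derived names had no call and a median of -0.35. miR-451a, a miRNA cut by Argonaute rather than DICER, was at 333 and 147 CPM in R1855L and 262 and 144 CPM in R821H (log2 -0.25, SE 0.47), groups that overlapped.

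The pairs of libraries were also compared by depth. All 24 called miRNAs had the same sign between the deeper libraries as between the shallower ones. They were called on these same libraries and none overlapped between groups, so the shared sign follows from that and is no separate evidence. The values were 2.36 and 2.61 for miR-222-3p, 1.58 and 1.67 for miR-25-3p, -1.36 and -2.17 for miR-139-3p and -1.72 and -1.77 for miR-185-3p. With the depth term, 77 miRNAs were called higher in R821H and 37 lower, and these held all 24. Within each pair the R821H library was the deeper one, and the part of this in the results was not tested.

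**Figure D5:**
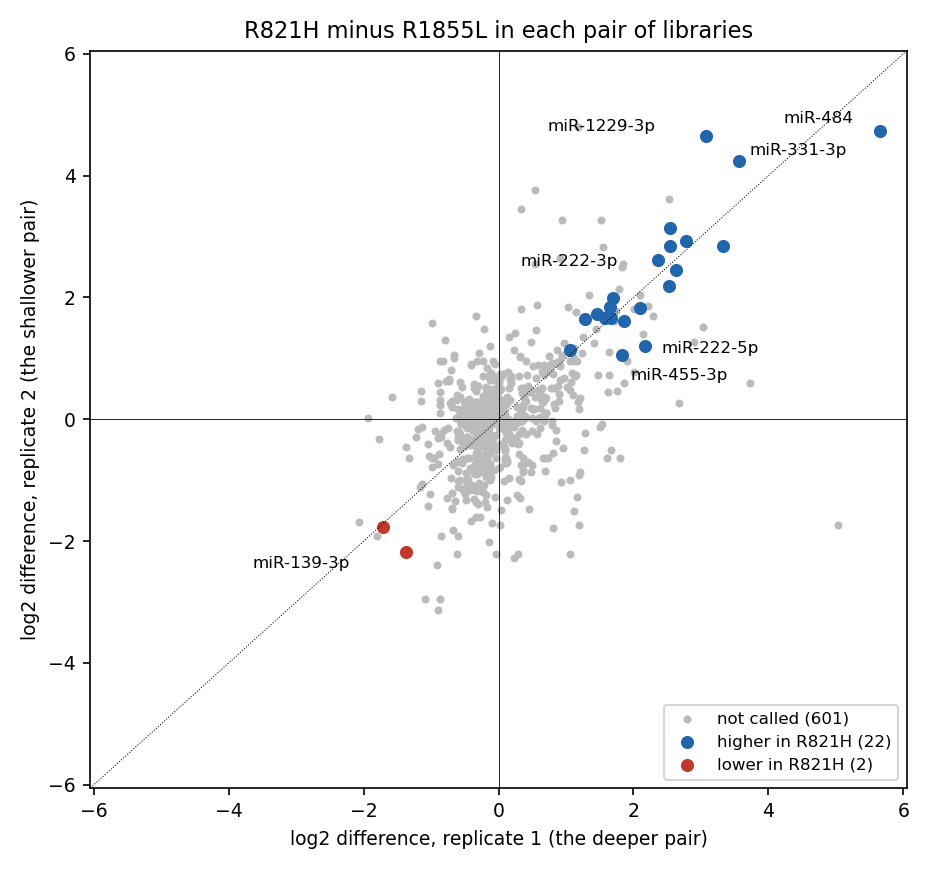
The log2 difference between the shallower libraries (replicate 2) is plotted against that between the deeper libraries (replicate 1) for the 625 tested miRNAs, with a dotted line of equality. The called miRNAs lie in the upper right or lower left corner, with miR-484 at 5.65 and 4.73, while uncalled points scatter around 0.

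Single libraries decided part of these calls. Of the 24 calls, 8 remained without R821H replicate 2, 14 without R821H replicate 1, R1855L replicate 1, R1003Q replicate 1 or R1003Q replicate 2, 16 without R1855L replicate 2, and 21 without either WT library. The calls of miR-484, miR-331-3p, miR-375, miR-3200-3p, miR-1307-3p, miR-222-3p and miR-27b-3p were made in all 8 such fits, and those of miR-23b-3p, miR-141-3p and miR-643 in none. miR-25-3p, miR-203a-3p and miR-140-3p lost their call only without R821H replicate 2 (edgeR adjusted p = 0.0640, 0.0596 and 0.0633). miR-615-3p and miR-361-3p lost it without R1855L replicate 1 or R821H replicate 2, and miR-203b-3p without either R821H library, with adjusted p up to 0.0596, 0.0596 and 0.0602. The fitted difference of miR-1229-3p was 7.83 without R1855L replicate 1, which leaves only the R1855L library with 0 reads, and at most 4.19 otherwise. The 2 calls of lower levels were lost in 5 of the 8 fits, without R1855L replicate 2, either R821H library or either R1003Q library, with log2 differences of -2.12 to -1.41 for miR-139-3p and -2.01 to -1.50 for miR-185-3p.

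Among strand ratios, miR-331 was called in all 8 left-out fits, between -4.33 and -3.68, and was the only one. Those of miR-25 and miR-185 lost their call only without R821H replicate 1 (limma adjusted p = 0.0626 for both), and that of miR-361 without either R821H library. The miR-139 ratio was lost without R1855L replicate 2 or either R821H library. The ratios of miR-33b, miR-455, miR-23b and miR-345 were called in none of the 8. Of the 14 ratio calls, 1 remained without R821H replicate 1 and 3 without R821H replicate 2. Without R1855L replicate 1 there remained 5, without either R1003Q library 6, without R1855L replicate 2 7, and without either WT library 8.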

How the data were processed

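Small RNAs from 100 µg of total RNA were sequenced by AQ-seq, a protocol with reduced ligation bias. The authors deposited 1 table per library with estimated counts per mature miRNA name (expected counts: 19 to 33 names per library hold fractions where reads are shared between names). The submitters' processing notes list the builds hg38 and mm10 and the tools BWA, cutadapt and bedtools, with neither role nor setting. Counts were rounded to whole numbers. Names were kept by filterByExpr, and edgeR 4.0.16 (quasi-likelihood, TMM, R 4.3.3) was fitted to all 8 libraries with 1 mean per group. Calls have a Benjamini-Hochberg adjusted p under 0.05 over all 625 tested names. Ratios of 5p to 3p reads were fitted with limma 3.58.1. DESeq2 1.42.0, other scalings and filters, a depth term, a replicate block and left-out libraries were alternatives. Depth classes (deep: both replicate 1 libraries compared and WT replicate 2) were set from the totals. Intervals cover counting error only.

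The named miRNAs are the 12 largest called differences each way with a mean of at least 50 CPM, the 10 most abundant, their other strands, and per list the called or most abundant members, with the 8 largest ratio changes each way. The members and lists were chosen with earlier results of these data known. Gene positions come from GENCODE 29 and RefSeq, GRCh38.p14.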

Additional observations from a re-analysis of the deposited data

How the results depend on the processing

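None of the 38 called levels and ratios changed direction under the alternatives run. They were called for their differences in these same counts, so a kept direction was likely from the start. Of 46 named levels that were not called, 23 changed sign under at least 1 of them, among them miR-21-5p, at 0.08 and at -0.36 without R1855L replicate 2. In place of 24 level calls there were 8 with library totals alone as scaling, 40 without the filter on low counts, 38 with DESeq2, 6 with the 4 compared libraries alone, and 114 with the depth term. Scaling by totals moved the median log2 difference over all tested miRNAs from -0.06 to -0.19. Leaving out 1 library gave 8 to 24 calls in all, some of them of other miRNAs. In place of 14 ratio calls there were 7 with a pseudocount of 5, 6 with the 4 libraries alone and 36 with the depth term, and 1 to 8 with 1 library left out. Of the 29 lists, 22 held a called member with the depth term in place of 9. The calls of miR-484, miR-331-3p, miR-375, miR-3200-3p, miR-1307-3p and miR-222-3p were made in every alternative run on them. A left-out R821H or R1855L library leaves 1 library in its group, whose spread is then assumed to be like that of the other groups. Causes of these shifts were not tested.

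R1855L and R821H share replicate numbers only. Deviations of same-numbered libraries from their group means had a correlation of 0.569 over 625 miRNAs, with 2 pairs. A replicate block gave 82 level calls (63 higher, 19 lower), 24 ratio calls and 20 lists with a call in the 4 libraries, where it equals depth class, and 15 level and 6 ratio calls in all 8. The first held all 24 level calls.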

Other observations

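Among the 1193 names below the filter, none of which had more than 31 reads in a compared library, 56 had 0 reads in both R1855L libraries and reads in both R821H libraries, and 7 the reverse. The R821H libraries were the deeper ones in both pairs, and the part of depth in this was not tested. miR-320e, a further name of the capped miR-320 family, had 0 reads in both R1855L libraries and 4 and 5 reads in the R821H libraries. A count of 0 there allows 3 reads.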
